A study of Mus musculus with 12 samples.

Results

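The genes described here are 39 heat shock proteins and other chaperones of the cytosol and mitochondria, followed over 5 groups of mouse CD4+ T cells. They are 11 heat-inducible chaperones, 15 constitutive members and cochaperones of the HSP70 and HSP90 systems, 7 subunits of the cytosolic chaperonin, 4 mitochondrial chaperones and 2 heat shock factors. A gene was included when a probe annotated to it had a detection p under 0.01 on at least 2 of the 12 arrays, and it was read by the probe with the highest mean. By this rule 36 of the 39 genes were found, among 12248 genes and unnamed probes (features) that passed the same filter. Hsp90ab1 and Hsf1 were not measured, as no probe was annotated to them. Hspb1, a small heat shock protein, had 2 probes, and neither was detected on 2 arrays. Of the 36, 28 were detected on all 12 arrays.

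RNA was taken from splenic CD4+ T cells of mice 2 months old and hybridised to Illumina mouse BeadChips, 1 array per sample. Naive CD4+ T cells were exposed to interleukin-7 (IL-7), a cytokine that keeps naive T cells alive, for 0, 6 or 24 h (2 arrays at each time). In another experiment Th9 cells, the helper T cells that make interleukin-9, were grown for 3 days either from naive cells first given IL-7 for 48 h or from naive cells not given IL-7, with 3 arrays per group. The labels give the strain B6.Cg-Tg(TcraTcrb)425Cbn/J for every group, which carries T cell receptor transgenes, while the series' design text names C57BL/6 mice. The cells at 0 h are the only ones without IL-7 in the naive cell experiment, so IL-7 and time in culture cannot be told apart there. Each experiment had its own BeadChip. No label says whether replicates came from different animals or cultures, so that p-values measure only how far these samples spread, and this spread may be technical.

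Chaperones bind proteins that are not yet, or no longer, folded. HSP70 proteins hold short stretches of a client, J-domain proteins bring clients to them and start ATP hydrolysis, and nucleotide exchange factors release the client. HSP90 takes over clients such as kinases and steroid receptors, helped by cochaperones, while the ring-shaped chaperonin folds actin and tubulin inside its cavity. Heat shock factors switch on the inducible genes by binding heat shock elements, inverted repeats of the unit GAA in gene promoters. In T cells, chaperone genes are also known to respond to activation and growth, when cells make large amounts of protein.

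Promoters of inducible chaperones are shown because heat shock factors act through elements in them, and they show how the genes of the family differ in sequence. RefSeq promoter windows (build GRCm38.p6, 250 bases before to 50 after a gene's start) were at hand for 32 of the 39 genes, at the outermost annotated start of each. The windows were searched for 2 neighbouring units, GAANNTTC or TTCNNGAA, and for 3 units, the same motifs followed, after 2 more bases, by a further unit in the next orientation. Both orientations were searched, which covers both strands, since each 2-unit motif reads the same on the other strand and each 3-unit motif reads there as the other one. Every 3-unit match also contains overlapping 2-unit matches. A 2-unit match was present in 12 of 32 windows (37.5%), against 15.1% of all 32851 windows in the table. Among the heat-inducible genes it was 7 of 10 (70%). A 3-unit match was present in 4 of 32 windows (12.5%), those of Hsph1, Chordc1, Dnajb6 and Hspe1, against 0.603% of all windows. A match describes the letters only and shows no binding. In the sequences below, written 5′ to 3′ on the strand of the gene, capitals mark the matches, and positions count from 0 at the first base of the gene. Hspa1b (chr17:34959239-34959388) and Hspa1a (chr17:34972157-34972306), both on the minus strand and shown over their last 150 bases before the start, illustrate a single 2-unit match and the likeness of these neighbours.
Hspa1b: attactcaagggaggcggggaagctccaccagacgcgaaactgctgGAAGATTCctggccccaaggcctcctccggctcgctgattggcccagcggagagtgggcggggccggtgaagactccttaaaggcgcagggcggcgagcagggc
Hspa1a: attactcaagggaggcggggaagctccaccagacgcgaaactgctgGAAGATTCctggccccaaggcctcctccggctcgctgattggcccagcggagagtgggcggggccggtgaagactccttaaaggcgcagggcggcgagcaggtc
Hsph1 (chr5:149636337-149636486, minus strand) has a 2-unit match shortly before the start, and its 3-unit match lies after the start, from 36 to 48, outside the stretch shown.
Hsph1: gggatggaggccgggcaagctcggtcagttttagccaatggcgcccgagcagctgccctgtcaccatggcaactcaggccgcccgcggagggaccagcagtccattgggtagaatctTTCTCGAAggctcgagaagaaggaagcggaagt
Chordc1 (chr9:18292137-18292286, plus strand, shown to base 19 after the start) and Hspe1 (chr1:55087998-55088147, plus strand) each carry a run of overlapping 3-unit matches.
Chordc1: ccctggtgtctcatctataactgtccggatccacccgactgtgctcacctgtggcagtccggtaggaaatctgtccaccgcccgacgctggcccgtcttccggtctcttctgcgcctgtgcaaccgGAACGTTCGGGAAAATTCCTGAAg
Hspe1: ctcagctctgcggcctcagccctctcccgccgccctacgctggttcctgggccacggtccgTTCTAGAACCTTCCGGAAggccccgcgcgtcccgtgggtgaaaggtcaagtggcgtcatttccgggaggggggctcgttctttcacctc
Over 250 bases before the start, Hspa1a and Hspa1b were identical at 247 positions (98.8%). Their transcripts are close copies too, so the split of signal between them is uncertain. Hspd1, which is transcribed away from Hspe1, had no match in the window at its outermost start, while another of its windows overlaps that of Hspe1 and holds the same run.

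**Figure D1:**
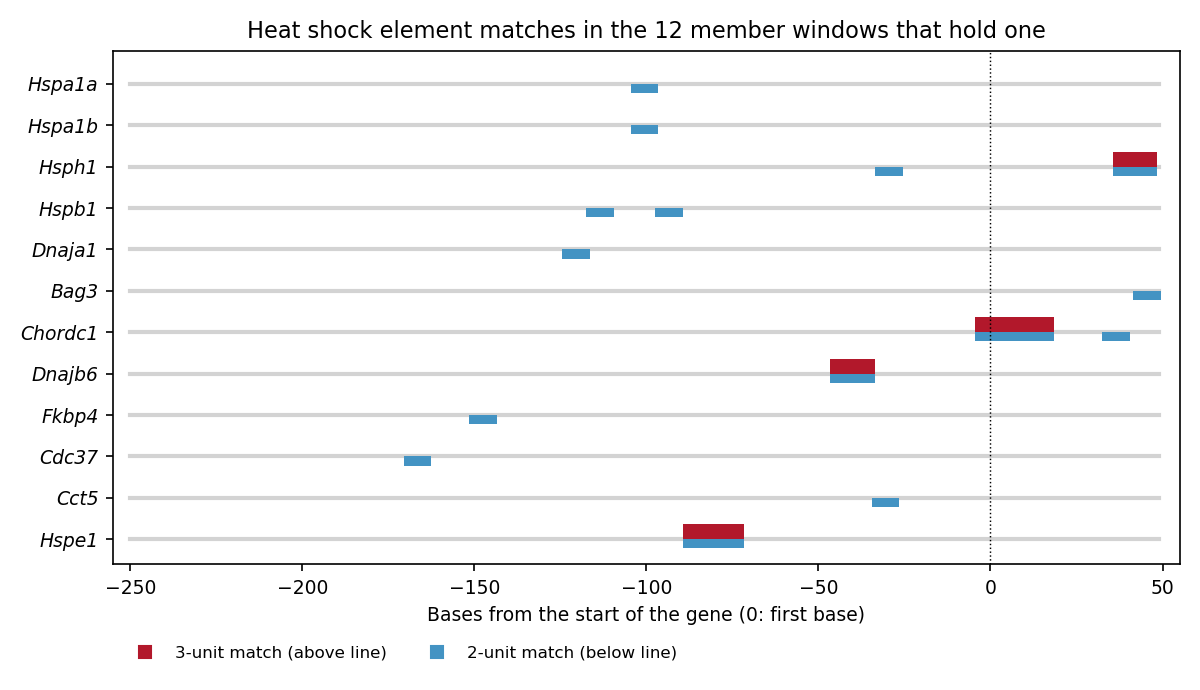
Positions of heat shock element matches in the promoter windows of the 12 genes that had one. The horizontal axis is the distance in bases from the start of the gene (0 is its first base), the grey line is the window, red blocks above it are 3-unit matches and blue blocks below it 2-unit matches. The 3-unit matches of Chordc1 span the start, and those of Hspe1 lie between positions -89 and -72.

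The mean deposited signal per array ranged from 157.6 to 245.2 in the naive cell experiment and from 116.1 to 221.6 in the Th9 experiment. Replicates correlated with a Pearson r of 0.993 at 0 h, 0.962 at 6 h and 0.992 at 24 h, and of 0.977 to 0.985 in the Th9 groups, across the features tested in each experiment. The 10 measured T cell identity markers were detected on every array. The first 6 h array stood apart by markers of other cell types. The summed signal of the 5 measured B cell markers was 10361.6 on it, against 147.4 to 627.6 on the other naive cell arrays, and that of 9 myeloid and dendritic markers was 5053.3, against 1156.2 to 1958.0. The sum over 2 erythroid markers was 3013.6 on that array, against 106.4 to 1191.3 on the others. Of these lists, 5, 9 and 2 genes were measured out of 11, 16 and 6. In bulk samples such as these, fewer cells of a type and less RNA per cell cannot be told apart.

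After 6 h of IL-7, 15 of the 35 chaperone genes tested were lower than at 0 h and 0 were higher (42.9% lower, against 5.31% of all 11040 features called lower and 4.2% called higher). The drop took in heat-inducible chaperones, HSP70 and HSP90 cochaperones and the mitochondrial pair Hspd1 and Hspe1. After 24 h, 11 of 35 were lower and 0 higher (31.4% lower, against 2.94% of all features called lower and 3.31% higher). The median difference of the 35 genes was -0.59 on the log2 scale at both times, while that of all features was -0.03 at 6 h and -0.0021 at 24 h. At 24 h, with 4 genes that were detected on neither 24 h array set at their bound, the median of the 35 was -0.45. Genes were called with limma at a Benjamini-Hochberg adjusted p under 0.05 over all features. An unadjusted p under 0.05 (limma) was reached by 3235 of all 11040 features at 6 h and by 2788 at 24 h. Both comparisons use the same 0 h arrays. Both arrays lay below both 0 h arrays for 28 of the 35 genes at 6 h (32% of all features) and for 26 at 24 h (31.9%). Of the 15 genes called at 6 h and the 11 called at 24 h, 10 were called at both (66.7% and 90.9%). Hspa1b and Dnaja1 passed the detection filter only through the 0 h arrays. Among the 28 genes detected on all 12 arrays, 13 were called lower at 6 h and 8 at 24 h.

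No call was left at 6 h or 24 h when either 0 h array was left out. Calls over all features were nearly all lost in these fits too, so the loss was not particular to the chaperone genes. The median of the 35 genes at 6 h was then -0.65 and -0.69, against -0.03 over all features. At 24 h no call was left without either 24 h array as well. There too nearly all calls over all features were lost. The median at 24 h was -0.60 to -0.58 with any one of the 0 h or 24 h arrays left out. Over all features it was -0.0063 to 0.0021. Without the first 6 h array, the one with B cell and myeloid markers, the median of the 35 genes at 6 h was -0.69. At 24 h it was -0.60 without that array and -0.59 without the other 6 h array. Fewer of the 35 genes were called at 6 h without either 24 h array, as were fewer features in all. Their median at 6 h was then -0.59. No called gene changed sign when any 1 array was left out. Markers of other cells moved as well. The 4 measured natural killer cell markers, of 8 listed, summed to 2559.2 and 4061.7 at 0 h, 1515.0 and 1897.0 at 6 h and 1943.4 and 2838.4 at 24 h, and 2 of them fell at 6 h and 3 at 24 h. The T cell identity markers summed to 42741.1 and 55302.7 at 0 h, 26450.7 and 29347.0 at 6 h and 29071.5 and 35658.6 at 24 h, and the erythroid markers were lower on the 24 h arrays (106.4 and 148.2) than on the 0 h arrays (890.8 and 1191.3). All these sums are of deposited signals, before normalisation. After normalisation the T cell markers had a median difference of -0.32 at 6 h and -0.47 at 24 h, and 2 of 10 fell at each time (limma). At 24 h all 5 B cell markers (median -1.17) and 7 of 9 myeloid and dendritic markers (median -0.73 over the 9) also lay below the 0 h arrays without overlap. Of either list 0 passed (limma), with 0 and 2 at an unadjusted p under 0.05 (2788 of all 11040 features). The part of these cells in the chaperone differences was not tested.

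Among the 10 heat-inducible genes tested, 6 fell at 6 h and 7 at 24 h, with medians of -1.52 and -1.60 (with undetected genes at their bound, -1.52 at 24 h). Of the 5 that were detected on all 12 arrays, 4 fell at each time. Hsph1, an HSP110 protein that serves HSP70 as an exchange factor, had log2 normalised signals of 11.13 and 11.44 at 0 h, 8.87 and 7.38 at 6 h and 9.22 and 8.93 at 24 h. It fell by 3.16 ± 0.45 (SE, adjusted p = 0.0164) at 6 h and fell by 2.21 ± 0.45 (SE, adjusted p = 0.0447) at 24 h. The 6 h arrays of Hsph1 lay far apart, but both were below both 0 h arrays. Dnajb1, the J-domain partner of HSP70, had levels of 12.42 and 12.23 at 0 h, 10.84 and 10.60 at 6 h and 10.74 and 10.81 at 24 h. Dnajb1 fell by 1.61 ± 0.15 (SE, adjusted p = 0.00677) at 6 h and fell by 1.55 ± 0.15 (SE, adjusted p = 0.00732) at 24 h. Its 6 h and 24 h arrays all lay more than 1 log2 unit below the 0 h arrays. For Hsp90aa1, the stress-inducible HSP90, the levels were 10.64 and 10.77 at 0 h, 8.86 and 8.86 at 6 h and 9.17 and 8.93 at 24 h. Hsp90aa1 fell by 1.85 ± 0.14 (SE, adjusted p = 0.00471) at 6 h and fell by 1.66 ± 0.14 (SE, adjusted p = 0.00618) at 24 h. A further probe of Hsp90aa1 gave -1.57 and -1.69. Chordc1, a zinc-binding partner of HSP90, stood at 11.29 and 11.54 at 0 h, 10.15 and 9.82 at 6 h and 10.22 and 10.18 at 24 h. It fell by 1.43 ± 0.17 (SE, adjusted p = 0.0111) at 6 h and fell by 1.22 ± 0.17 (SE, adjusted p = 0.0169) at 24 h, again with no overlap between times and 0 h.

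The inducible HSP70 genes Hspa1a and Hspa1b were near the detection limit. The deposited signal of Hspa1a was 113.4 and 71.7 at 0 h, 17.6 and 11.6 at 6 h and -3.4 and 5.3 at 24 h, and it was detected on both 0 h arrays, 1 6 h array and neither 24 h array. Hspa1b had 110.7 and 81.9 at 0 h, 6.3 and 7.8 at 6 h and 1.7 and -0.3 at 24 h, and was detected at 0 h alone. Hspa1a fell by 1.61 ± 0.20 (SE, adjusted p = 0.0128) at 6 h. It was at least 2.82-fold lower at 24 h (adjusted p = 0.00662), with mean log2 levels of 4.41 at 24 h, against 6.64 at 0 h. For such a bound, the undetected group was set, array by array, to the lowest value among detected probes, or its own where higher. Hspa1b was at least 3.16-fold lower at 6 h (adjusted p = 0.00278) and at least 2.95-fold lower at 24 h (adjusted p = 0.00163). Its mean log2 levels were 6.70 at 0 h, 4.62 at 6 h and 4.35 at 24 h. A further probe of Hspa1b gave smaller differences of -0.73 and -0.88. Hspa4l, a relative of Hsph1, had log2 levels of 8.66 and 8.46 at 0 h, 7.90 and 6.45 at 6 h and 6.26 and 6.31 at 24 h. Its difference of -1.38 ± 0.43 (SE, adjusted p = 0.0953) at 6 h missed the threshold, and at 24 h it fell by 2.28 ± 0.43 (SE, adjusted p = 0.0375).

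The other inducible genes did not pass the test at either time. The J-domain gene Dnajb4 differed by -1.06 ± 0.37 (SE, adjusted p = 0.121) at 6 h and -1.27 ± 0.37 (SE, adjusted p = 0.0972) at 24 h, and another of its probes went the other way (0.70 and 0.85). Dnaja1 was detected on the 0 h arrays alone and differed by -0.54 ± 0.16 (SE, adjusted p = 0.085) at 6 h and -0.69 ± 0.16 (SE, adjusted p = 0.0562) at 24 h. Bag3, an exchange factor that also leads clients to autophagy, had log2 levels of 8.05 and 7.92 at 0 h, 8.32 and 7.70 at 6 h and 7.20 and 7.07 at 24 h. Its difference was 0.02 ± 0.22 (SE, adjusted p = 0.954) at 6 h. At 24 h both arrays were below both 0 h arrays with an adjusted p of 0.0724.

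**Figure D2:**
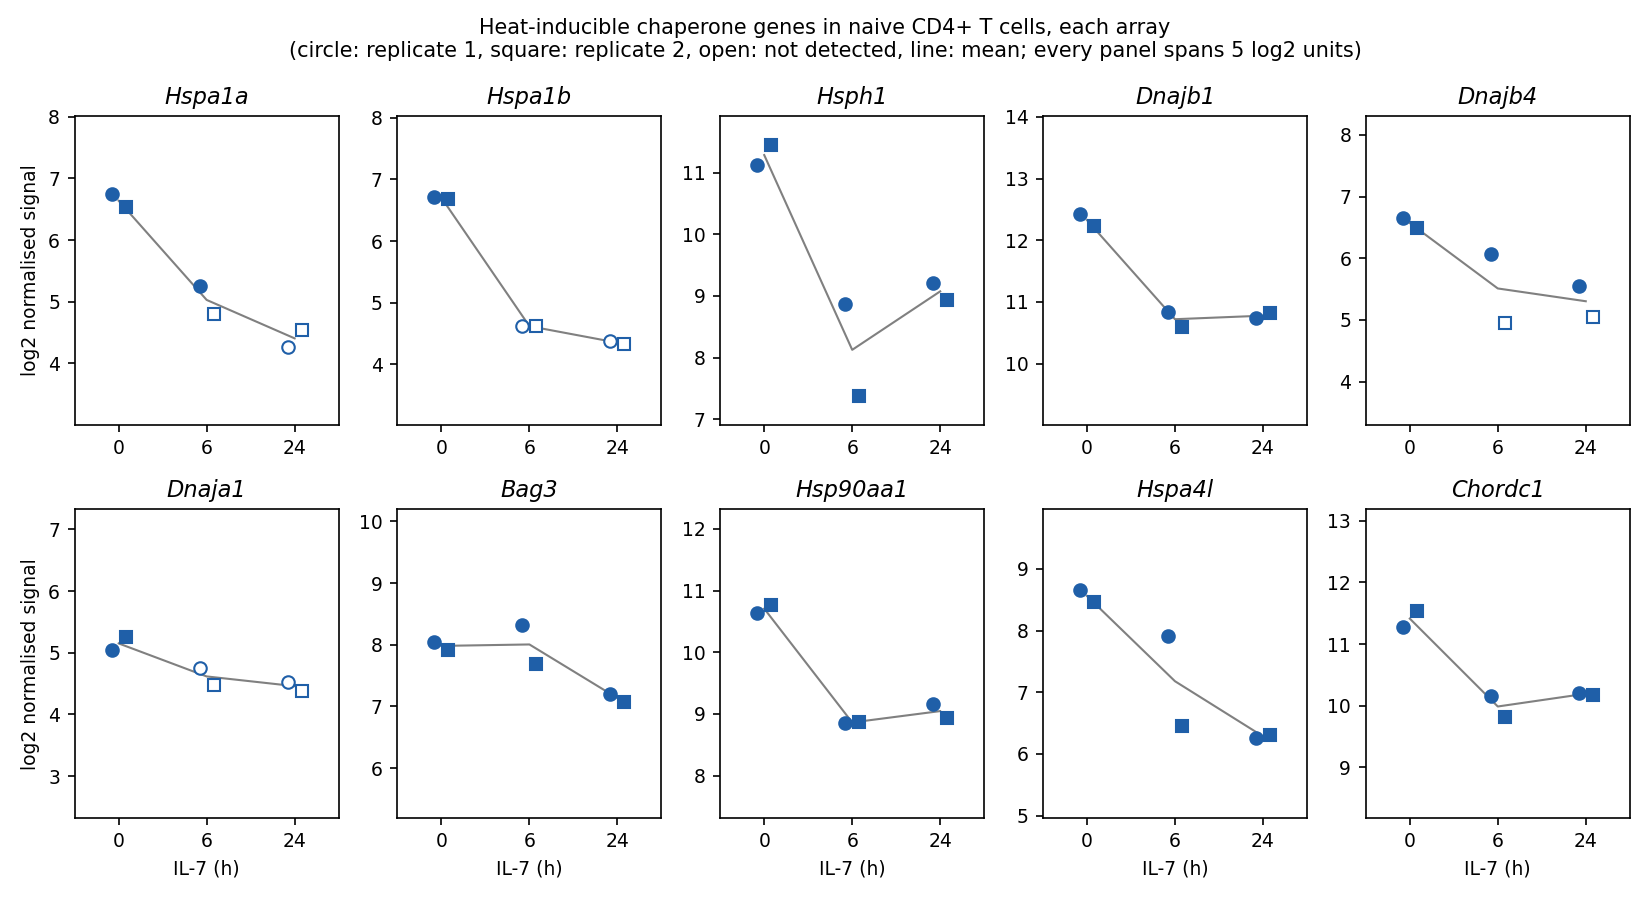
Log2 normalised signal of the 10 measured heat-inducible genes on each naive cell array (vertical axis, every panel spanning 5 log2 units) against hours of IL-7 (horizontal axis). Circles are replicate 1, squares replicate 2, open symbols arrays on which the probe was not detected, and lines join the means of 2 arrays. The 0 h arrays lie above all 6 h and 24 h arrays for every gene but Bag3, whose 6 h arrays lie on either side of them.

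Among the 13 constitutive HSP70 and HSP90 genes and cochaperones tested, 6 fell at 6 h and 3 at 24 h, with medians of -0.67 and -0.40. Hspa8, the main constitutive HSP70, had log2 levels of 13.51 and 13.54 at 0 h, 12.83 and 12.57 at 6 h and 12.66 and 12.84 at 24 h. It fell by 0.83 ± 0.15 (SE, adjusted p = 0.0249) at 6 h and fell by 0.78 ± 0.15 (SE, adjusted p = 0.0361) at 24 h. Its further probes gave -1.49 and -0.77 at 6 h and -1.19 and -0.57 at 24 h. Stip1, which joins HSP70 to HSP90, was at 10.42 and 10.87 at 0 h, 9.46 and 9.005 at 6 h and 9.37 and 9.61 at 24 h. Stip1 fell by 1.41 ± 0.22 (SE, adjusted p = 0.0202) at 6 h and fell by 1.15 ± 0.22 (SE, adjusted p = 0.0395) at 24 h. The arrays of the 2 later times overlapped with each other but not with those of 0 h. Cacybp, a partner of ubiquitin ligases and HSP90, had levels of 8.04 and 8.11 at 0 h, 6.38 and 6.22 at 6 h and 6.78 and 6.51 at 24 h. It fell by 1.77 ± 0.15 (SE, adjusted p = 0.00619) at 6 h and fell by 1.43 ± 0.15 (SE, adjusted p = 0.00923) at 24 h.

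Further cochaperones were called at 6 h and not at 24 h. St13, which steadies HSP70 in its client-bound form, had levels of 8.12 and 8.49 at 0 h, 7.20 and 7.57 at 6 h and 8.04 and 7.78 at 24 h and fell by 0.93 ± 0.20 (SE, adjusted p = 0.042) at 6 h. Fkbp4, an immunophilin of the HSP90 complex, was at 10.45 and 10.75 at 0 h, 9.78 and 9.75 at 6 h and 10.39 and 10.39 at 24 h and fell by 0.84 ± 0.14 (SE, adjusted p = 0.0236) at 6 h. Ahsa1, the activator of the HSP90 ATPase, had 9.47 and 9.92 at 0 h, 8.68 and 8.27 at 6 h and 8.80 and 8.82 at 24 h and fell by 1.22 ± 0.21 (SE, adjusted p = 0.0236) at 6 h. Their 24 h differences were -0.40, -0.21 and -0.88, in the order St13, Fkbp4 and Ahsa1, with adjusted p-values of 0.279, 0.406 and 0.0599. All 6 h arrays of these 3 genes lay below the 0 h arrays. Bag1, an HSP70 exchange factor, was at 11.35 and 11.22 at 0 h, 11.26 and 11.50 at 6 h and 11.50 and 11.40 at 24 h, with overlap at 6 h. The remaining genes, Hspa4, Dnaja2, Dnajb6, Hspbp1, Ptges3 and Cdc37, had differences of -0.67 to 0.47 at 6 h and -0.63 to 0.47 at 24 h. None of these 6 passed with limma at either time. In the whole group 10 of 13 had an unadjusted p under 0.05 at 6 h and 6 of 13 at 24 h. The counts over all 11040 features were 3235 and 2788. The kinase cochaperone Cdc37 and the J-domain gene Dnajb6 were among those with higher values.

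Of the 7 chaperonin subunits, 1 fell at 6 h and 0 at 24 h, with 3 and 4 at an unadjusted p under 0.05 (limma). Over all 11040 features, 3235 and 2788 reached that p. Cct3 had log2 levels of 10.76 and 10.74 at 0 h, 10.26 and 10.09 at 6 h and 10.23 and 10.37 at 24 h and fell by 0.58 ± 0.13 (SE, adjusted p = 0.0471) at 6 h. Tcp1 and Cct4 differed by -0.08 and -0.19 at 6 h and by 0.09 and -0.17 at 24 h. The chaperonin median was -0.46 at 6 h and -0.36 at 24 h. Cct7 was detected on 1 0 h array and neither 24 h array, and with its bound the 24 h median was -0.17. The levels of Tcp1 were 10.61 and 10.60 at 0 h, 10.47 and 10.58 at 6 h and 10.59 and 10.80 at 24 h. The 24 h arrays of Tcp1 overlapped with those of 0 h. The Cct4 levels were 11.51 and 11.61 at 0 h, 11.39 and 11.35 at 6 h and 11.34 and 11.43 at 24 h.

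Of the 4 mitochondrial chaperones, 2 fell at 6 h and 1 at 24 h. Hspd1 and Hspe1 encode HSP60 and HSP10, which together form the folding chamber of the mitochondrial matrix. Hspd1 had levels of 10.83 and 10.98 at 0 h, 9.80 and 9.54 at 6 h and 10.30 and 10.12 at 24 h. It fell by 1.24 ± 0.15 (SE, adjusted p = 0.0128) at 6 h and differed by -0.70 ± 0.15 (SE, adjusted p = 0.0524) at 24 h. Hspe1 was at 10.13 and 10.24 at 0 h, 9.03 and 8.71 at 6 h and 9.49 and 9.47 at 24 h. Hspe1 fell by 1.31 ± 0.15 (SE, adjusted p = 0.0109) at 6 h and fell by 0.71 ± 0.15 (SE, adjusted p = 0.0476) at 24 h. For both genes the 24 h arrays lay between those of 6 h and 0 h. Hspa9, the mitochondrial HSP70, differed by -0.48 ± 0.13 (SE, adjusted p = 0.0654) at 6 h, and Trap1, the mitochondrial HSP90, by -0.47 ± 0.14 (SE, adjusted p = 0.0887). Neither passed. The heat shock factor Hsf2 was at 6.36 and 6.25 at 0 h, 5.31 and 6.28 at 6 h and 6.65 and 6.10 at 24 h and did not pass at either time. Its probes disagreed in direction at both times.

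Read against the promoter windows above, 30 of the tested genes had a window. Of the 11 with a 2-unit heat shock element match, 6 fell at 6 h, and 5 fell at 24 h. Only the window at the outermost start of a gene was counted. Of the 19 without a match there, 6 fell at 6 h, among them Dnajb1, Hspd1 and Stip1, and 4 fell at 24 h. Hspd1, Dnajb4 and Cct2, counted as without a match, had a match in another of their windows. Hspa1b and Dnaja1, both with a match, passed the detection filter only through the 0 h arrays. The medians were -0.84 with a match and -0.56 without one at 6 h, and -0.71 with a match and -0.45 without one at 24 h. Genes of both kinds were among those that fell, and the difference was not tested.

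**Figure D3:**
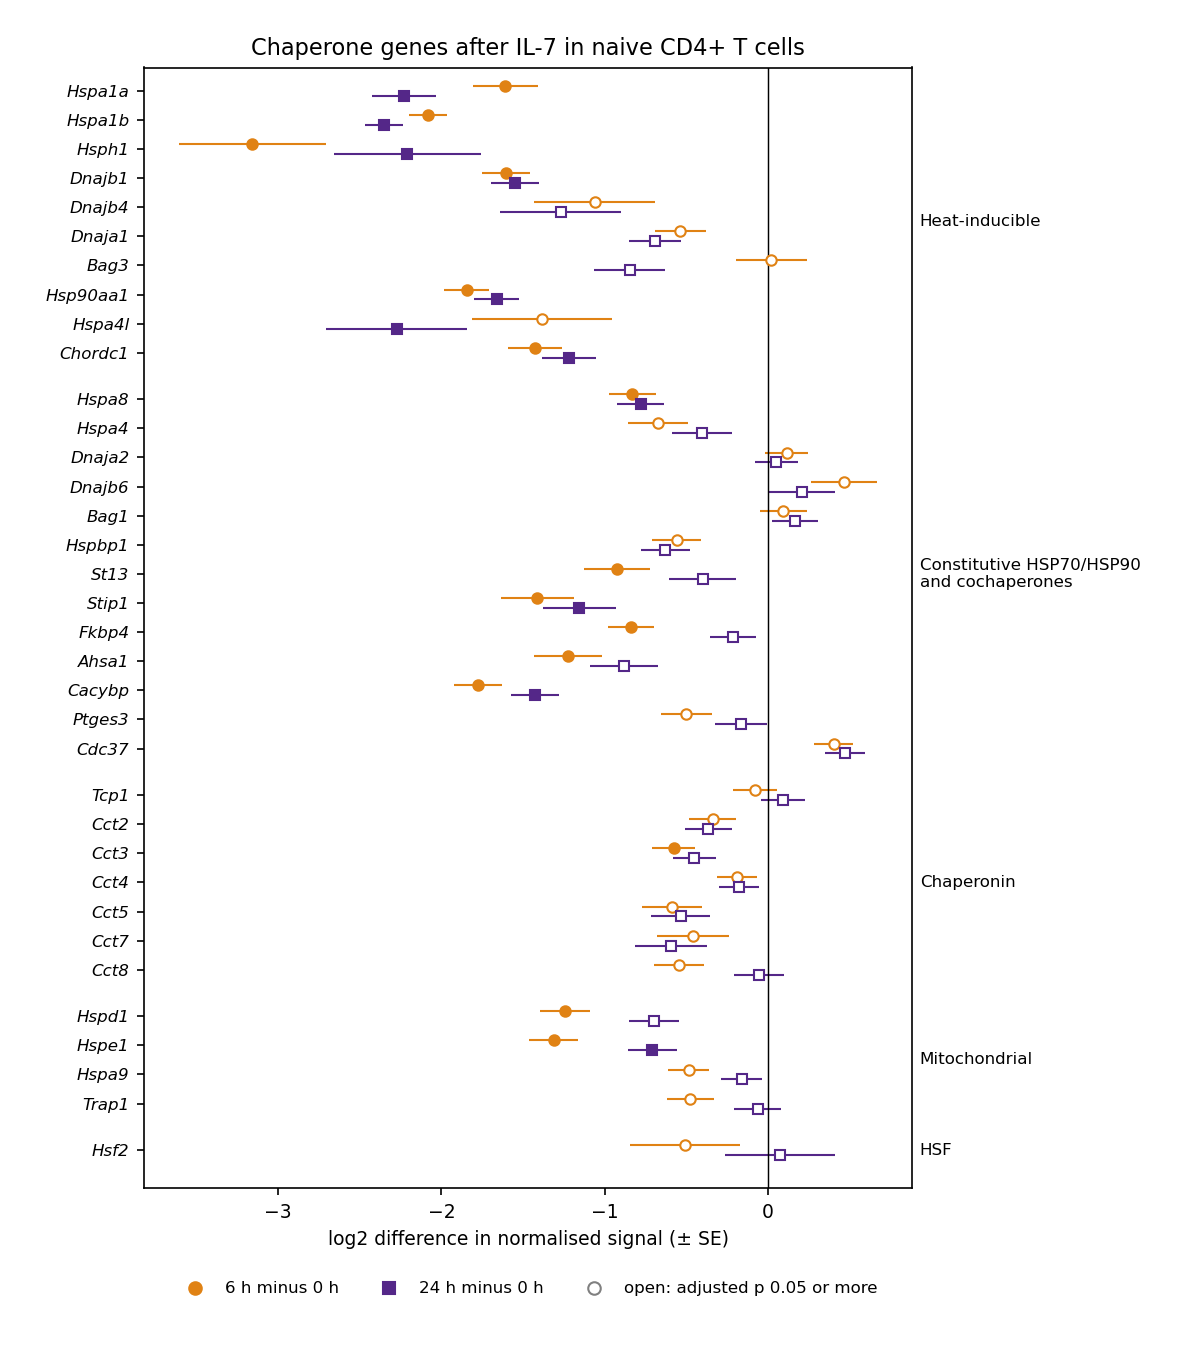
Log2 differences of the 35 tested chaperone genes after IL-7 in naive CD4+ T cells, at 6 h (circles) and at 24 h (squares), each minus 0 h, with standard errors. Filled symbols passed the adjusted p threshold of 0.05. The largest difference is that of Hsph1 at 6 h (-3.16), and all filled symbols lie left of 0.

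Between 6 h and 24 h, 0 of 35 chaperone genes passed with limma (49 of 11040 features, 0.444%), while 7 were higher and 2 lower at 24 h at an unadjusted p under 0.05. Of all 11040 features, 1883 reached that p in either direction. The 4 mitochondrial genes were each higher on both 24 h arrays than on both 6 h arrays, by 0.32 to 0.60, whereas 27.1% of all features were higher without overlap. Fkbp4, at 0.63 (adjusted p = 0.14), had the lowest adjusted p. The heat-inducible genes had a median difference of -0.18, and 0.18 over the 5 detected on all 12 arrays, with -0.89 for Hspa4l, -0.87 for Bag3 and 0.95 for Hsph1. Of the 10 inducible genes, 6 had their lowest mean at 24 h and 4 at 6 h, the 6 including Hspa1b and Dnaja1, which were detected at neither time. All 4 mitochondrial genes and 5 of 7 chaperonin subunits had it at 6 h. Some of the 35 genes were called when either 6 h array was left out, but calls over all features rose in the same fits. Without the first 6 h array the median of the 35 was 0.18, against 0.005 over all features. It was 0.07 without the other, and 0.07 over all features.

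Other chaperones, 62 genes listed beside these 39, were counted at both times. Of the 45 measured, 2 fell and 0 rose at 6 h (4.44%), the HSP90 immunophilin Ppid (-0.76) and the mitochondrial J-domain gene Dnaja3 (-0.61). At 24 h 0 of 45 passed (limma), with 5 at an unadjusted p under 0.05, against 2788 of all 11040 features. The medians of the 45 were -0.11 at 6 h and -0.04 at 24 h. Immediate early genes such as Fos and Jun, which respond to cell handling, were followed as well. Their summed signal over 13 genes was 9941.7 and 14468.3 at 0 h, 3229.7 and 16693.7 at 6 h and 2052.4 and 2830.6 at 24 h, the highest value being on the first 6 h array. Of 11 tested, 0 passed at 6 h and 1, Ier2, fell at 24 h (-0.69), with 1 and 7 at an unadjusted p under 0.05 (limma). Over all 11040 features, 3235 and 2788 reached that p. The part of handling in the chaperone differences was not tested.

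In Th9 cells, earlier IL-7 gave no detectable difference in the chaperone genes. Of the 32 tested, 0 passed with limma (33 of 9594 features, 0.344%) and 0 had an unadjusted p under 0.05 (947 of 9594 features). For none did the 3 arrays of one group all lie beyond those of the other (6.35% of all features were higher and 8.24% lower without overlap). The differences, IL-7 Th9 minus Th9, ran from -0.30 for Hsf2 to 0.25 for Cct3, with a median of 0.03. Their 95% confidence intervals reached from -0.70 (Hsf2) to 0.75 (Hspa4l). Hsph1 was at 8.80, 8.48 and 9.23 after IL-7, against 8.32, 8.60 and 8.87 without it, a difference of 0.24 ± 0.22 (SE, adjusted p = 0.807). Hsp90aa1 had 10.32, 10.01 and 10.27 after IL-7, against 9.85, 10.38 and 10.17 without it, and Dnajb1 had 9.83, 8.995 and 9.34, against 9.20, 9.39 and 9.49. In each case the groups overlapped. Hspd1, at 11.74, 12.08 and 12.47 in IL-7 Th9 cells and 11.73, 12.04 and 12.005 in Th9 cells, also overlapped.

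Hspa1a, Hspa1b, Dnajb4 and Dnaja1 were too dim to be tested in this experiment. The deposited signal of Hspa1a was 51.6, 15 and 4.1 in IL-7 Th9 cells (detected on 2 of 3 arrays), against 11.7, 9.5 and 4.1 in Th9 cells (detected on 0 of 3). Only the first of these IL-7 Th9 arrays stood clear of the others. Hspa1b, Dnajb4 and Dnaja1 were detected on none of the 6 arrays.

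The IL-7 difference at 24 h in naive cells was then set against that in Th9 cells, in a contrast over all 12 arrays normalised together, in which a constant difference between the BeadChips cancels. The contrast was lower for 10 of 36 chaperone genes and higher for 0 (27.8% lower, against 1.69% of 12248 features called lower and 2.06% higher). Of these 10, 7 are heat-inducible and 3 are HSP70 or HSP90 partners. The contrast was -2.03 ± 0.22 (SE, adjusted p = 0.00143) for Hspa1b and -1.83 ± 0.23 (SE, adjusted p = 0.00313) for Hsp90aa1, and Hsp90aa1 was called whichever array was left out. Hspa1b was detected on the 0 h arrays alone, through which it passed the filter, so its value sets them against background in the other 3 groups. It was -2.71 for Hspa1a, -2.59 for Hsph1, -2.51 for Hspa4l, -1.66 for Dnajb1 and -1.35 for Chordc1. Among the partners it was -1.35 for Cacybp, -1.22 for Stip1 and -0.88 for Hspa8. Hspa4l was detected on 2 of 3 Th9 arrays and 1 of 3 IL-7 Th9 arrays, so its contrast includes values near background. Hspa1a was not detected on the 24 h arrays or on the Th9 arrays without IL-7, so its contrast includes values at background. It lost its call in 7 of the 12 fits with 1 array left out, with values of -3.23 to -2.28 and adjusted p-values of 0.0038 to 0.13, and was -2.28 (adjusted p = 0.0214) without its 1 clear IL-7 Th9 array. Of the 5 inducible genes detected on all 12 arrays, 4 were called. Of the 7 chaperonin subunits and 4 mitochondrial chaperones, 0 passed (limma), with 1 and 2 at an unadjusted p under 0.05, and Hspd1 stood at -0.96 ± 0.30 (SE, adjusted p = 0.113). Of all 12248 features, 2210 had an unadjusted p under 0.05 in this contrast (limma). The median contrast of the 36 genes was -0.53, against 0.0097 over all features. Fewer of the 36 genes passed when any one 0 h or 24 h array was left out, as did fewer features in all. Their median was then -0.63 or -0.52 without the first or the other 0 h array. Without the first or the other 24 h array it was -0.59 or -0.51. Over all features it was 0.0075 to 0.015 in these fits. Without Th9 replicate 1, 2 or 3, which had no IL-7, 4, 5 or 6 of the 36 genes passed. In these fits 285, 244 and 321 of all 12248 features passed, against 459 with every array. IL-7 lasted 24 h in the naive cells, while the Th9 cells had 48 h of IL-7 followed by 3 days of culture, so the times differ as well as the cells.

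**Figure D4:**
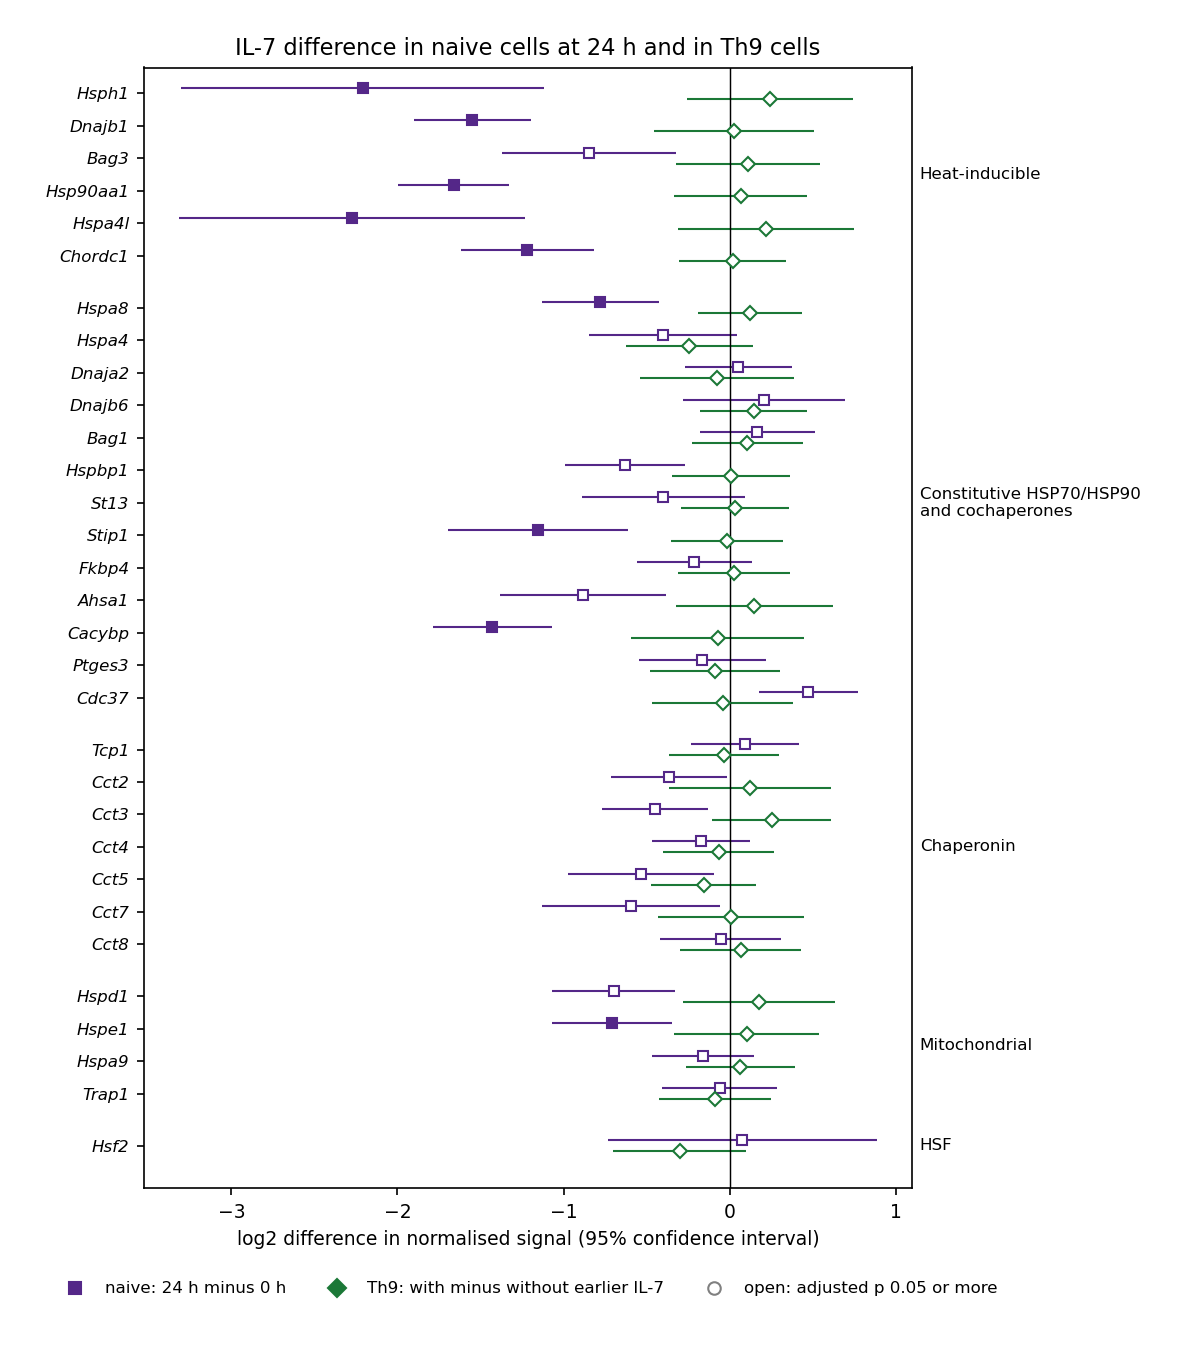
Log2 differences with 95% confidence intervals for the 31 chaperone genes tested in both experiments, naive cells at 24 h minus 0 h (squares) and Th9 cells with minus without earlier IL-7 (diamonds). Filled symbols passed the adjusted p threshold of 0.05. The squares of Hsph1, Hspa4l, Hsp90aa1 and Dnajb1 lie between -2.28 and -1.55, and all diamonds between -0.30 and 0.25.

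Th9 cells without IL-7 were also compared with naive cells at 0 h, although these lie on different BeadChips, so that chip and cell state cannot be told apart. Of 36 chaperone genes, 14 were higher and 12 lower in Th9 cells (72.2% against 66.8% of all features called, 31.4% higher and 35.4% lower), a share near the background. This comparison shares the 0 h arrays with those above. Of 10 heat-inducible genes, 8 were lower and 0 higher, with a median of -1.83 (-1.22 with genes not detected in Th9 cells at their bound). The 8 include Hspa1b and Dnaja1, which passed the filter only through the 0 h arrays. Among the 28 genes detected on all 12 arrays, 12 were higher and 6 lower in Th9 cells, and among the 5 inducible genes of these, 0 were higher and 3 lower. Of 7 chaperonin subunits, 6 were higher and 0 lower, with a median of 0.76. Of 4 mitochondrial chaperones 3 were higher and 1 lower, and of 14 constitutive HSP70 and HSP90 genes 5 were higher and 3 lower, Hspa14 among the 5 having passed the filter only through the Th9 experiment. The median of all features was -0.08. Markers of T cells and other cells moved with this comparison too. Of 10 T cell identity markers 9 were lower in Th9 cells and 0 higher (median -0.97), and of 4 natural killer cell markers 3 were lower and 1 higher. Of 9 myeloid and dendritic markers 3 were lower and 1 higher, with 8 below the 0 h arrays without overlap, and the 1 CD8 T cell marker was lower. Of 5 B cell markers 0 passed, and 4 lay above the 0 h arrays without overlap. The part of these cells in the chaperone differences was not tested.

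Among the inducible genes, Hspa4l had log2 levels of 5.26, 5.44 and 4.92 in Th9 cells, against 8.40 and 8.19 in naive cells at 0 h. Hspa4l fell by 3.09 ± 0.38 (SE, adjusted p = 2.69e-05). Its deposited signal in Th9 cells was near the detection limit, at 26, 17.7 and 10.7, with 2 of 3 arrays detected. The size of this fall is therefore uncertain. Dnajb1 had 9.46, 9.64 and 9.74 in Th9 cells, against 12.38 and 12.20 in naive cells at 0 h, a difference of -2.68 ± 0.21 (SE, adjusted p = 6.68e-07). The ranges of both genes were far apart. Hsph1 was at 8.63, 8.89 and 9.14 in Th9 cells, against 11.02 and 11.36 in naive cells at 0 h, and Chordc1 at 9.16, 9.07 and 9.22 in Th9 cells, against 11.19 and 11.48 in naive cells at 0 h. Their differences were -2.30 ± 0.37 (SE, adjusted p = 0.000195) for Hsph1 and -2.19 ± 0.15 (SE, adjusted p = 3.13e-07) for Chordc1. Hspa1a, Hspa1b and Dnajb4, not detected on any Th9 array, were at least 2.29-fold (adjusted p = 0.00381), 2.39-fold (adjusted p = 6.68e-07) and 2.19-fold (adjusted p = 0.000149) lower in Th9 cells. Hspa1b entered the test only through the 0 h arrays. So did Dnaja1, whose adjusted p was 0.000766 but whose bound was under 1, so that no difference above background can be given for it. Bag3 (0.10) and Hsp90aa1 (-0.26) did not pass, and a further probe of Hsp90aa1 gave 1.91. The other probe of Dnajb4 was higher in Th9 cells, at 0.45.

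The chaperonin subunits were nearly all higher in Th9 cells. Tcp1 had log2 levels of 12.01, 12.24 and 12.01 in Th9 cells, against 10.47 and 10.46 in naive cells at 0 h. It rose by 1.63 ± 0.14 (SE, adjusted p = 1.55e-06). Cct5 was at 8.49, 8.64 and 8.73 in Th9 cells, against 7.20 and 7.02 in naive cells at 0 h, and it rose by 1.51 ± 0.15 (SE, adjusted p = 5.59e-06). All Th9 arrays of both genes lay above the naive arrays. Cct7 had 5.84, 5.99 and 6.00 in Th9 cells, against 5.37 and 4.91 in naive cells at 0 h. Cct4 had 12.25, 12.35 and 12.15 in Th9 cells, against 11.44 and 11.55 in naive cells at 0 h. The Th9 arrays were again the higher ones. Cct8 had 10.85, 11.24 and 10.85 in Th9 cells, against 10.32 and 10.38 in naive cells at 0 h. Cct3 had 11.10, 10.97 and 11.35 in Th9 cells, against 10.64 and 10.61 in naive cells at 0 h. These 4 rose by 0.80, 0.76, 0.63 and 0.52 in the order Cct7, Cct4, Cct8 and Cct3, without overlap. Cct2 differed by 0.37 ± 0.22 (SE, adjusted p = 0.168) and did not pass. Cct6a, another subunit of the same ring listed among the other chaperones, rose by 1.68.

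In the mitochondrial group, Hspa9 had levels of 12.36, 12.60 and 12.35 in Th9 cells, against 11.04 and 11.03 in naive cells at 0 h and rose by 1.40 ± 0.14 (SE, adjusted p = 5.19e-06). Hspd1 was at 11.76, 12.08 and 12.05 in Th9 cells, against 10.72 and 10.87 in naive cells at 0 h and rose by 1.17 ± 0.21 (SE, adjusted p = 0.000446). Hspe1 had 10.32, 10.71 and 10.45 in Th9 cells, against 9.93 and 10.05 in naive cells at 0 h and rose by 0.50 ± 0.18 (SE, adjusted p = 0.0287). Trap1 went the other way, at 8.55, 8.68 and 8.84 in Th9 cells, against 9.26 and 9.20 in naive cells at 0 h, a difference of -0.54 ± 0.14 (SE, adjusted p = 0.00623). None of these 4 genes overlapped between the groups. Further probes of Hspa9 and Hspd1 gave 1.93 and 1.98.

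Of the constitutive group, Hspbp1, an HSP70 exchange factor, had 8.44, 8.54 and 8.50 in Th9 cells, against 7.07 and 7.37 in naive cells at 0 h and rose by 1.27 ± 0.15 (SE, adjusted p = 2.25e-05). Hspa14, a ribosome-bound HSP70 not detected on any naive array, was at least 1.51-fold higher in Th9 cells (adjusted p = 4.81e-05), with a deposited signal of 30.2, 19.1 and 22.9, against 6.2 and 3.0 at 0 h. It was detected on all 6 arrays of the Th9 experiment and entered the test only through them. Cdc37 had 5.93, 6.33 and 6.01 in Th9 cells, against 5.48 and 5.40 in naive cells at 0 h. Stip1 was at 11.15, 11.08 and 10.96 in Th9 cells, against 10.25 and 10.76 in naive cells at 0 h, and Bag1 at 11.68, 11.54 and 11.75 in Th9 cells, against 11.26 and 11.11 in naive cells at 0 h. These 3 rose by 0.65 (Cdc37), 0.56 (Stip1) and 0.47 (Bag1), with adjusted p-values of 0.00937, 0.0235 and 0.0126. Hspa8 was at 12.89, 13.16 and 12.95 in Th9 cells, against 13.41 and 13.44 in naive cells at 0 h and fell by 0.42 ± 0.14 (SE, adjusted p = 0.0165). Ahsa1, at 8.41, 8.74 and 9.12 in Th9 cells, against 9.24 and 9.71 in naive cells at 0 h, fell by 0.72 ± 0.23 (SE, adjusted p = 0.0148). Dnaja2, a J-domain gene, had 5.46, 5.60 and 5.43 in Th9 cells, against 6.41 and 6.42 in naive cells at 0 h and fell by 0.91 ± 0.22 (SE, adjusted p = 0.00377), but another of its probes was higher by 0.85. Hspa4, Dnajb6, St13, Fkbp4, Cacybp and Ptges3 had differences between -0.21 and 0.25 and did not pass. Of the 47 other chaperones measured, 20 rose and 12 fell (68.1%), from -2.68 for the endoplasmic reticulum J-domain gene Dnajb9 to 2.81 for the mitochondrial protease Lonp1.

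The differences of the inducible genes depended on the naive time they were set against. With naive cells at 24 h in place of those at 0 h, a comparison added after the data had been seen that uses the same Th9 arrays, 18 of 36 genes were higher and 4 lower in Th9 cells (31.6% and 36% of all features). Among the 28 genes detected on all 12 arrays, 16 were higher and 3 lower. Hspa14, counted among the higher genes, was detected on no naive array and passed the filter only through the Th9 experiment. Cct7, also counted there, was detected on neither 24 h array. Of the 10 inducible genes, 2 rose and 2 fell, with a median of -0.03. Hspa1a, Hspa1b and Dnaja1 were detected in neither group, so no direction can be read for them. Of the 5 inducible genes detected on all 12 arrays, 2 rose and 2 fell, with a median of 0.06. Hsp90aa1 rose by 1.52 ± 0.16 (SE, adjusted p = 9.16e-06) and Bag3 by 0.95 ± 0.22 (SE, adjusted p = 0.00246), while Dnajb1 differed by -1.04 ± 0.21 (SE, adjusted p = 0.0009) and Chordc1 by -0.85 ± 0.15 (SE, adjusted p = 0.000447). Hspa8, of the constitutive group, turned in direction, at 0.33, and passed (adjusted p = 0.0482). Hsph1, at 0.06 ± 0.37 (SE, adjusted p = 0.901), and Ahsa1, at 0.20 ± 0.23 (SE, adjusted p = 0.451), did not pass, so no direction can be read for them. The chaperonin had 7 of 7 subunits higher and a median of 1.03. Hspd1 rose by 1.95 ± 0.21 (SE, adjusted p = 9.04e-06), Hspa9 by 1.57 ± 0.14 (SE, adjusted p = 2.2e-06) and Hspe1 by 1.25 ± 0.18 (SE, adjusted p = 9.8e-05), and Trap1 fell by 0.47 ± 0.14 (SE, adjusted p = 0.0122).

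Over the 5 groups, 9 of 10 heat-inducible genes had their highest mean in naive cells at 0 h, the exception being Bag3. Hspa1b and Dnaja1 were detected on the 0 h arrays alone, so their place was fixed by the filter. Of the 5 inducible genes detected on all 12 arrays, 4 had their highest mean at 0 h. These places are those of the probes used. They join different BeadChips, so chip and cell state cannot be told apart in them. Of all features, 31.4% were called higher and 35.4% lower in Th9 cells than in naive cells at 0 h. The other probe of Hsp90aa1 was higher in Th9 cells than at 0 h (1.91). That of Dnajb4 was higher at 6 h, at 24 h and in Th9 cells (0.70, 0.85 and 0.45), and that of Hspa1b was lower in all 3 (-0.73, -0.88 and -0.76). All 7 chaperonin subunits had their highest mean in a Th9 group, 4 of them after IL-7 and 3 without it, and 3 of 4 mitochondrial chaperones had it in Th9 cells after IL-7. No difference between the Th9 groups passed the test for any of these genes, so the order of those groups is within their spread.

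**Figure D5:**
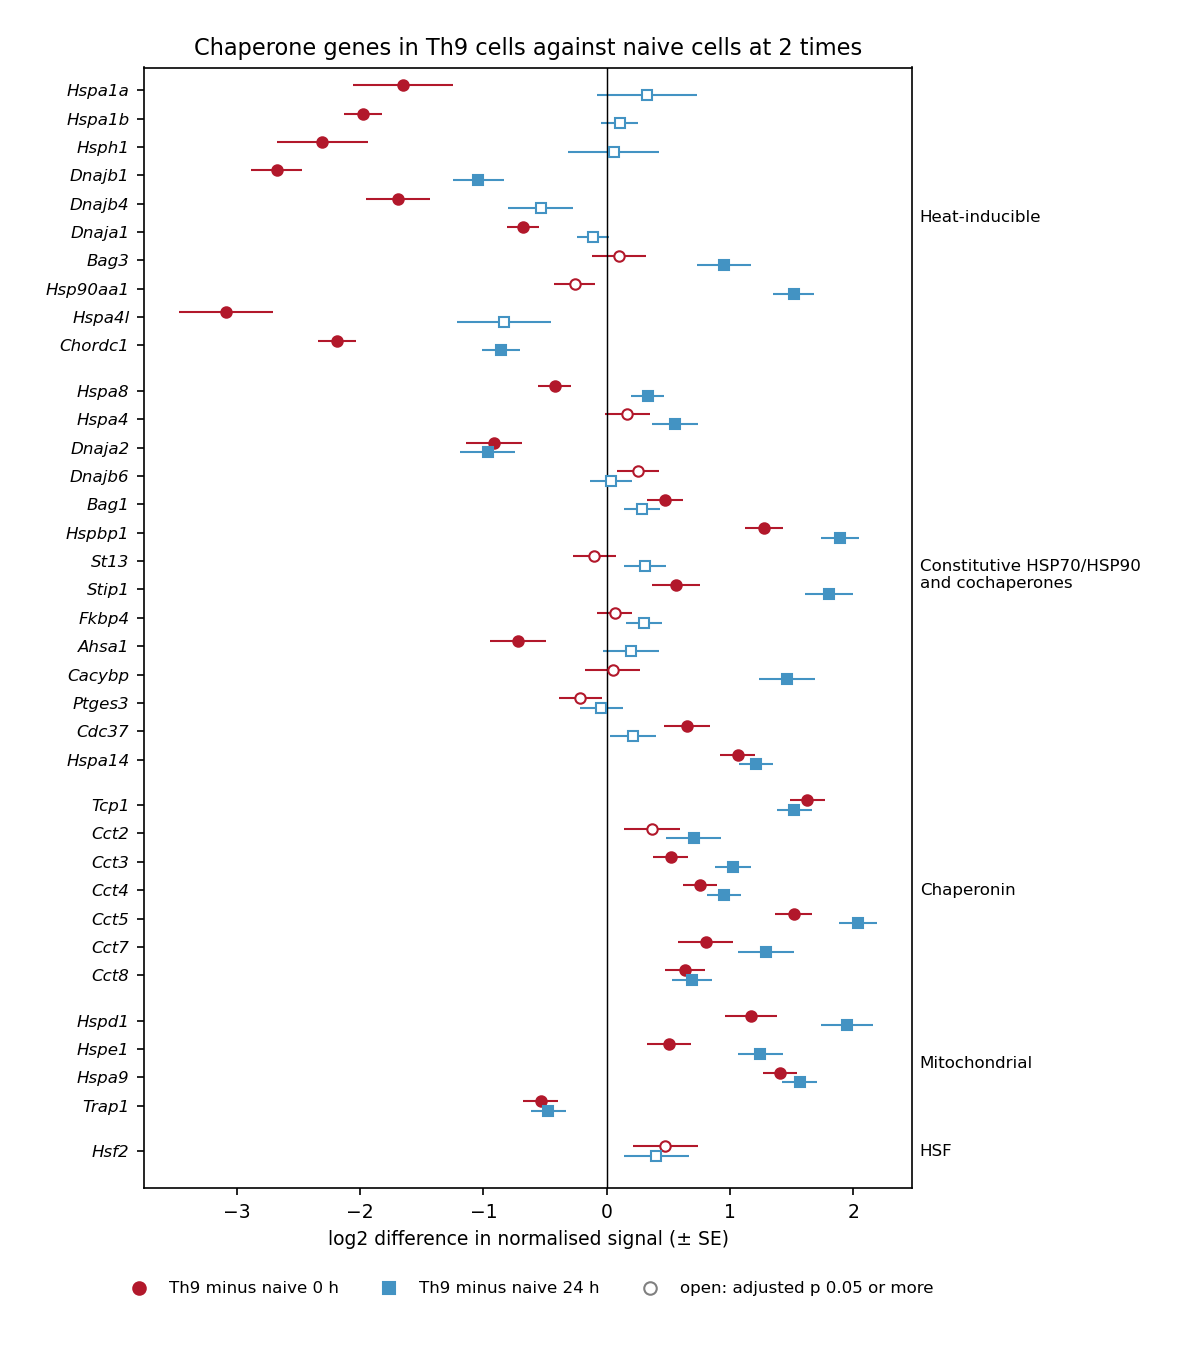
Log2 differences with standard errors for the 36 measured chaperone genes in Th9 cells without IL-7, minus naive cells at 0 h (circles) and minus naive cells at 24 h (squares), all 12 arrays normalised together. Filled symbols passed the adjusted p threshold of 0.05. The inducible genes lie mostly left of 0 against the 0 h arrays and around 0 against the 24 h arrays (medians of -1.83 and -0.03), where Hspa1a, Hspa1b and Dnaja1 were detected in neither group, while the chaperonin subunits lie right of 0 in both (medians of 0.76 and 1.03).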

How the data were processed

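Total RNA of 12 samples was labelled with biotin and hybridised to Illumina mouse BeadChips, which were read with GenomeStudio, per the submitters' processing notes. The authors deposited an unnormalized table of 45281 probes with a background-subtracted signal intensity and a detection p-value per probe and array. A further deposited table of scaled intensity values was not used, because its probe names did not match those signals (Spearman rho from -0.008 to 0.002 over same-named probes), and its scaling and centring stay unknown. Each experiment lies on its own BeadChip by the array descriptions in the labels.

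From the deposited intensity, log2 values were computed with limma 3.58.1 in R 4.3.3, by neqc (background model from the detection p-values, offset 16, quantile normalisation), over the 6 arrays of an experiment or all 12. Gene symbols came from the platform annotation (34885 probes with 1 symbol, 18 with several, 10378 with none), and all 39 listed genes matched RefSeq symbols. Features detected (p under 0.01) on 2 of 6 naive arrays, 3 of 6 Th9 arrays or 2 of 12 arrays were tested with lmFit and eBayes, and the probe with the highest mean stood for a gene. Residual degrees of freedom were 3, 4 and 7. Adjusted p-values are Benjamini-Hochberg over all features tested. The fits were checked on simulated data. The number of arrays limits the precision. Whether replicate numbers pair the arrays is not known, and the fits reported used no pairing. Same-numbered arrays correlated in their deviations from the group means at -0.19 to 0.14 in naive cells and -0.10 to 0.29 in Th9 cells. With 2 arrays per naive group the deviations mirror each other, so these values cannot show whether arrays were paired.

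The members and lists were chosen with earlier results of these data known. By rule, values per array were given for members called in a comparison and for the 2 with the highest mean of each role. Alternatives were scaling to the 75th percentile, offset 50, no detection filter or a stricter one, the mean of probes, eBayes with a trend, other sets of arrays in the fit, the replicate number as a block, and leaving out each array. Hsp90ab1 and Hsf1 were not analysed here.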

Additional observations from a re-analysis of the deposited data

Results flagged for a closer look

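The IL-7 difference at 24 h in naive cells minus that in Th9 cells passed the test of the difference itself for 10 chaperone genes, each lower in naive cells (limma, 12 arrays). On the log2 scale it was -2.71 for Hspa1a (adjusted p = 0.0287), -2.59 for Hsph1 (adjusted p = 0.0233), -2.51 for Hspa4l (adjusted p = 0.0298) and -2.03 for Hspa1b (adjusted p = 0.00143). It was -1.83 for Hsp90aa1 (adjusted p = 0.00313), -1.66 for Dnajb1 (adjusted p = 0.0129) and -1.35 for Chordc1 (adjusted p = 0.00898). For the HSP70 and HSP90 partners it was -1.35 for Cacybp (adjusted p = 0.0442), -1.22 for Stip1 (adjusted p = 0.0345) and -0.884 for Hspa8 (adjusted p = 0.031). Duration of IL-7 and time in culture differed between the experiments along with the cells, and their parts were not tested. Hspa1a was not detected on the 24 h arrays or the Th9 arrays without IL-7, and Hspa1b was detected on the 0 h arrays alone and entered the test through them, so the values of both include signals at background. Hspa4l was near background in the Th9 experiment, detected on 2 of 3 Th9 arrays and 1 of 3 IL-7 Th9 arrays. Of the 10 genes, only Hsp90aa1 and Hspa1b kept their call whichever array was left out. Each of the others, Hspa1a among them, lost it in several fits with 1 array left out. Calls over all features were also fewer whenever a 0 h, 24 h, Th9 or IL-7 Th9 array was left out.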

How the results depend on the processing

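For 6 h minus 0 h, 15 chaperone genes were called. The count was 8 with the 4 arrays of those groups alone, 13 with the replicate block, and 0 to 21 when 1 array was left out. For 24 h minus 0 h, 11 were called, against 6 with scaling to the 75th percentile, 6 with no detection filter, 7 with the replicate block, and 20 with the 4 arrays alone, and leaving out 1 array gave 0 to 20. For 24 h minus 6 h the count was 0. Some genes were called with either 6 h array left out, as were more features in all. IL-7 Th9 minus Th9 gave 0 in every setting run, by limma throughout, with 0 genes at an unadjusted p under 0.05 in the fit reported. For Th9 minus naive cells at 0 h, 26 genes were called, 21 with the replicate block, and 19 to 27 with 1 array left out. For the naive difference minus the Th9 difference, 10 were called, against 5 with no detection filter and 8 with the replicate block, and 2 to 11 with 1 array left out. Whether the replicate numbers pair the arrays is not known, so the block cannot be read as a paired effect. With 24 h arrays in place of 0 h arrays, the Th9 difference was 0.056 for Hsph1, 0.33 for Hspa8 and 0.20 for Ahsa1, and of these Hspa8 alone passed (limma). It was 0.33 for Hspa1a and 0.10 for Hspa1b, which were detected in neither group, so no direction can be read from these. The cause of these changes was not tested, except that leaving out an array or using 4 arrays also removes residual degrees of freedom. Among single called genes, 477 values kept their direction and their side of the threshold, 56 kept the direction alone and 5 had the other sign, over the alternatives other than leaving out an array. With 1 array left out these were 431, 157 and 0. Over all features, calls at 6 h numbered 1050, against 534 with no detection filter and 153 with the 4 arrays alone, and at 24 h 690, against 221 and 2393. Calls over all features also rose at both times when either one of the 6 h arrays was left out. They were nearly all lost at both times when either 0 h array was left out. Signals near background limit Hspa1a, Hspa1b, Dnaja1, Dnajb4, Cct7, Hspa14, Hspa4l and Dnaja2, the 8 genes not detected on all 12 arrays.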

Other observations

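Other probes of a gene did not always follow the one used. For Hsf2 the probe used gave 0.47 in Th9 cells minus naive cells at 0 h, while its other probe gave -0.73. For Cct3 the other probe was higher by 1.27 in that comparison, against 0.52 for the probe used. For Dnajb6, a J-domain gene, 3 further probes gave -0.42 to -0.10, against 0.25 for the probe used. Hsp90aa1 differed most, with 1.91 for its other probe and -0.26 for the probe used.

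Of the other chaperones measured in Th9 cells and naive cells at 0 h, Dnajc2, a ribosome-associated J-domain gene, rose by 2.16, Pfdn4, a subunit of the prefoldin complex that hands clients to the chaperonin, rose by 2.01, and Fkbp8, an immunophilin of the mitochondrial outer membrane, fell by 1.98. Hspa2, an HSP70 gene best known from the testis, rose by 2.34. These comparisons join different BeadChips, so chip and cell state cannot be told apart.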
